A study of Mus musculus with 6 samples.

Results

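The genes of fatty acid uptake and oxidation were followed in CD4 T cells cultured towards the Th17 state, a helper lineage known for interleukin-17. The 31 genes were taken by symbol from the table of 33300 features and cover uptake, activation, the carnitine shuttle, the β-oxidation spiral, electron transfer, peroxisomal steps and the receptors of fatty acids. All 31 were in the table, and 29 of them reached an average of 1 FPKM and were tested among 11378 such genes. FPKM is the number of reads per kb of feature and per 1000000 assigned reads. The cells came from 3 SLE1.2.3 mice, a genotype that carries the lupus intervals Sle1 (chromosome 1), Sle2 (chromosome 4) and Sle3 (chromosome 7), and from 3 control mice labelled WT. All mice were female and matched for age. Naive CD4 T cells of both groups were stimulated for 5 days on plates coated with antibodies to CD3 and CD28, with IL-23, IL-1β, TGF-β1 and IL-6, while IL-4 and interferon-γ were blocked by antibodies. The labels give neither the ages nor the strain of the controls, and no purity after culture. The series was described as a comparison of Th17 cells from lupus-prone and healthy mice, so the question here is which fatty acid genes differed between the genotypes.

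Long-chain fatty acids enter cells through carriers such as CD36 and the FATP proteins, are bound by FABP proteins and are joined to coenzyme A by ACSL enzymes. CPT1 on the outer mitochondrial membrane passes the acyl group to carnitine, the carrier SLC25A20 brings acylcarnitine across the inner membrane, and CPT2 restores acyl-CoA. Each turn of β-oxidation then runs through an acyl-CoA dehydrogenase, a hydratase, a hydroxyacyl-CoA dehydrogenase and a thiolase, and the dehydrogenase passes its electrons through ETF to the respiratory chain. As background, Th17 cells are known to rely on glycolysis and on new synthesis of fatty acids, whereas regulatory and memory T cells are known to make more use of fatty acid oxidation.

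The libraries were checked against markers before the members were read. They held between 61700000 and 83500000 assigned reads in the SLE1.2.3 group and between 29700000 and 56800000 in the control group. All 8 CD4 T cell markers were present, with a summed level of 942 to 1518 FPKM in cells of SLE1.2.3 mice and 1371 to 1488 FPKM in control cells. The 7 Th17 markers summed to 2603 to 3048 FPKM in cells of SLE1.2.3 mice and 854 to 1569 FPKM in control cells. Markers of γδ and innate-like T cells, 9 of 12 listed symbols being in the table, summed to 59.0, 271 and 601 FPKM in SLE1.2.3 mice 1, 2 and 3, against 3.10 to 3.87 FPKM in control cells, and all 9 were higher in every SLE1.2.3 library. The 10 CD8 T and NK cell markers summed to 69.6, 302 and 432 FPKM in the same SLE1.2.3 mice and to 15.7 to 17.4 FPKM in control cells, with 9 of the 10 higher in every SLE1.2.3 library and Ncr1, Klrb1c and Eomes under 1 FPKM throughout. The 8 B and plasma cell markers summed to 127 to 184 FPKM in cells of SLE1.2.3 mice and 56.2 to 63.3 FPKM in control cells, with Ms4a1 and Pax5 under 1 FPKM throughout. By the γδ and CD8 lists the libraries of SLE1.2.3 mice 2 and 3 stood apart from that of mouse 1. Ribosomal RNA took 2.18% of the reads of control mouse 3 and at most 0.0683% in each other library.

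Higher in SLE1.2.3 than in control cells were the medium-chain dehydrogenase gene Acadm, the carnitine transferase gene Cpt1a, the electron carrier subunit gene Etfb and the thioesterase gene Acot7, while the synthetase gene Acsl1 was lower. Of the 29 members tested with limma, 4 rose, 1 fell and 24 did not pass an adjusted p of 0.05. Among all 11378 tested genes 9.65% were called higher and 5.58% lower, and the members' shares, 13.8% and 3.45%, lay near that background. Rescaling to a common FPKM sum split the calls over all genes into 990 higher and 351 lower, and quantile normalization into 921 and 881, beside 1098 and 635 here. The FPKM sum was 386361 in control mouse 3, the library with the most ribosomal RNA, and 297266 to 313550 in the other libraries. A common sum therefore changed control mouse 3 most, and results under that setting rest largely on this library. The members' median log2 change was 0.15, where that of all tested genes was 0.01. In 10 of the 29 tested members all 3 SLE1.2.3 values lay above the control values and in 4 all lay below, against 23.9% and 17.7% of all tested genes. A second fit, limma voom on reads recovered from the FPKM steps, called the same 5 members. With no filter on low values, so that more genes were tested, Acadm alone kept its call. Leaving out 1 library at a time, Acadm passed in all 6 fits. Cpt1a and Etfb passed without SLE1.2.3 mouse 1 or without SLE1.2.3 mouse 3 and lost the call without any of the other 4 libraries (adjusted p up to 0.0937 and 0.105). Acot7 and Acsl1 passed without SLE1.2.3 mouse 1 and lost the call without any of the other 5 (adjusted p up to 0.129 and 0.121). In bulk RNA a smaller number of cells of a type and less RNA per cell cannot be told apart.

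**Figure D1:**
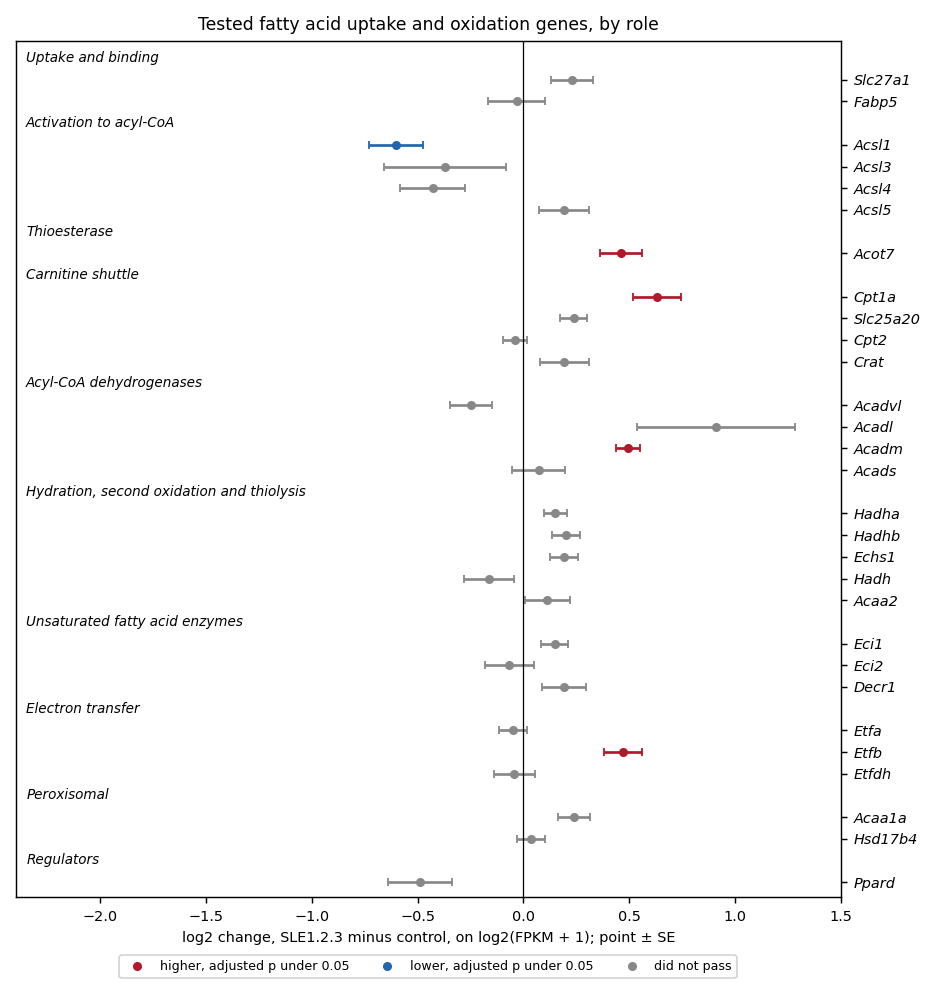
Change of each of the 29 tested genes, grouped by role; the horizontal axis is the log2 change of SLE1.2.3 over control cells on log2(FPKM + 1), bars are SE from limma with 3 libraries per group, and colour marks the call. Acadm, Cpt1a, Etfb and Acot7 are the 4 called higher and Acsl1 the 1 called lower, while Acadl has the highest change, 0.91, and the widest bar.

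Of the 2 uptake and binding genes tested, 0 passed with limma, 0 had an unadjusted p under 0.05 and 0 passed with voom. Fabp5, the cytosolic fatty acid binding protein of many immune cells, stood at 15.6, 19.1 and 21.6 FPKM in SLE1.2.3 mice 1, 2 and 3, against 21.4, 18.9 and 17.1 FPKM in control mice 1, 2 and 3. The groups covered the same range (log2 change -0.03, SE 0.13, adjusted p = 0.89), and the sign turned positive without SLE1.2.3 mouse 1 or without control mouse 1. Slc27a1, which encodes the transporter FATP1, was at 7.12, 6.88 and 5.58 FPKM in cells of SLE1.2.3 mice and 5.13, 5.67 and 5.38 FPKM in control cells, with overlap (adjusted p = 0.15). Without SLE1.2.3 mouse 3 it was called higher (log2 change 0.32, adjusted p = 0.0445). Cd36, the scavenger receptor that takes up fatty acids, was not tested because its mean lay below the filter. It had 83, 9 and 2 reads in SLE1.2.3 mice 1, 2 and 3, or 0.277, 0.041 and 0.007 FPKM, and 49, 63 and 16 reads in control mice 1, 2 and 3, or 0.271, 0.309 and 0.15 FPKM. SLE1.2.3 mouse 1 was inside the control range, and mice 2 and 3 were below it. Cd36 is also a gene of macrophages and platelets. The 11 macrophage, monocyte and dendritic markers summed to 13.5, 9.09 and 8.59 FPKM in SLE1.2.3 mice 1, 2 and 3, against 8.65 to 10.1 FPKM in control cells, with Csf1r, Adgre1, Mertk and Fcgr1 under 1 FPKM throughout. Members of this list, chosen here after their values were seen, went opposite ways. Lyz2 was at 7.73, 2.07 and 1.06 FPKM in these SLE1.2.3 mice and 3.09 to 5.70 FPKM in control cells, so that mice 2 and 3 were below the controls as for Cd36. Cd68 was at 1.95, 1.68 and 1.32 FPKM, against 2.702 to 4.08 FPKM in control cells, and Xcr1 at 0.901, 3.89 and 5.25 FPKM, against at most 0.060 FPKM in control cells. The 9 platelet, red cell and adipocyte markers summed to 2.64, 10.6 and 7.36 FPKM in SLE1.2.3 mice 1, 2 and 3, against 0.753 to 1.01 FPKM in control cells. The part of such cells in the Cd36 value was not tested.

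The long-chain acyl-CoA synthetases, which activate fatty acids, included the decrease. Acsl1, an isoform tied to both oxidation and lipid storage in other tissues, was at 1.33, 0.987 and 1.00 FPKM in cells of SLE1.2.3 mice, against 2.69, 1.95 and 1.98 FPKM in control cells. All SLE1.2.3 values lay below all control values, and the ratio of means was 0.502 (log2 change -0.60, SE 0.13, adjusted p = 0.030). The log2 change on recovered reads, which has no pseudocount of 1 FPKM, was -0.99 (limma voom, adjusted p = 0.022). The call ended under a common FPKM sum (adjusted p = 0.0645). Acsl4, which prefers arachidonic acid, was at 57.0, 45.0 and 39.0 FPKM in cells of SLE1.2.3 mice and 71.9, 59.8 and 57.6 FPKM in control cells; the groups did not overlap, yet the gene did not pass (log2 change -0.43, adjusted p = 0.11). Acsl3, a synthetase of the endoplasmic reticulum and lipid droplets, was at 14.9, 9.74 and 5.84 FPKM in the SLE1.2.3 mice 1, 2 and 3, against 13.4, 13.2 and 11.3 FPKM in control cells. SLE1.2.3 mouse 1 was above and mice 2 and 3 were below every control (adjusted p = 0.40). Acsl5, a synthetase of mitochondria and the endoplasmic reticulum, was at 35.9, 41.5 and 50.1 FPKM in cells of SLE1.2.3 mice and 36.5, 36.1 and 37.6 FPKM in control cells (adjusted p = 0.30). The log2 changes of Acsl3 and Acsl5 had the other sign, at 0.22 and -0.032, in SLE1.2.3 mouse 1 alone against the controls.

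The make-up of the synthetase pool differed between libraries. Acsl5 made up 32.9%, 42.7% and 52.2% of the summed FPKM of Acsl1, Acsl3, Acsl4 and Acsl5 in SLE1.2.3 mice 1, 2 and 3, and 29.4%, 32.5% and 34.6% in control mice 1, 2 and 3. Acsl4 made up 52.2%, 46.3% and 40.7% in the SLE1.2.3 mice and 57.7%, 53.8% and 53.1% in the control mice. By the deposited feature length Acsl5 thus exceeded Acsl4 in SLE1.2.3 mouse 3 alone. This order depends on the length used. Over the longest protein-coding transcript the mean FPKM of Acsl5 and Acsl4 was 48.7 and 48.1 in SLE1.2.3 cells, and 42.1 and 64.6 in control cells. These shares were given no test.

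Acot7, a cytosolic thioesterase that splits long-chain acyl-CoA back into fatty acid and coenzyme A and is best known from neurons, was among the most abundant members. It was at 84.5, 96.2 and 99.99 FPKM in cells of SLE1.2.3 mice, against 74.8, 64.9 and 63.2 FPKM in control cells. All SLE1.2.3 values were above the controls (log2 change 0.46, SE 0.10, adjusted p = 0.031). Acot7 lies on chromosome 4 (152178134 to 152271855, mm10), and of 27 other tested genes starting within 2 Mb of it 1 was called higher and 0 lower. Over all tested genes the shares were 9.65% higher and 5.58% lower. Its call ended under scaling to one common sum of FPKM (adjusted p = 0.0759).

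Of the 4 carnitine shuttle genes 1 rose, that of the entry step, beside 9.65% of all tested genes called higher. Cpt1a, the malonyl-CoA-sensitive transferase that controls entry of long-chain fatty acids into mitochondria, stood at 7.74, 9.25 and 10.5 FPKM in SLE1.2.3 mice 1, 2 and 3, against 5.43, 5.97 and 5.21 FPKM in control mice 1, 2 and 3. It rose in every SLE1.2.3 library, least in mouse 1 (ratio of means 1.66; log2 change 0.63, SE 0.11, adjusted p = 0.021). Slc25a20, the carnitine-acylcarnitine carrier, was at 8.93, 9.23 and 8.71 FPKM in cells of SLE1.2.3 mice and 7.48, 7.86 and 7.01 FPKM in control cells; the groups did not overlap and the gene did not pass (log2 change 0.24, adjusted p = 0.056). Cpt2, the inner-membrane transferase, was at 6.06, 6.22 and 6.02 FPKM in cells of SLE1.2.3 mice and 6.22, 6.40 and 6.30 FPKM in control cells (adjusted p = 0.63). The ratio of Cpt1a to Cpt2 FPKM was 1.28, 1.49 and 1.75 in SLE1.2.3 cells and 0.873, 0.932 and 0.827 in control cells. Crat, which moves short acyl groups onto carnitine, was at 5.07 ± 0.685 FPKM in cells of SLE1.2.3 mice and 4.30 ± 0.524 FPKM in control cells (SD, n = 3 each; adjusted p = 0.28).

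**Figure D2:**
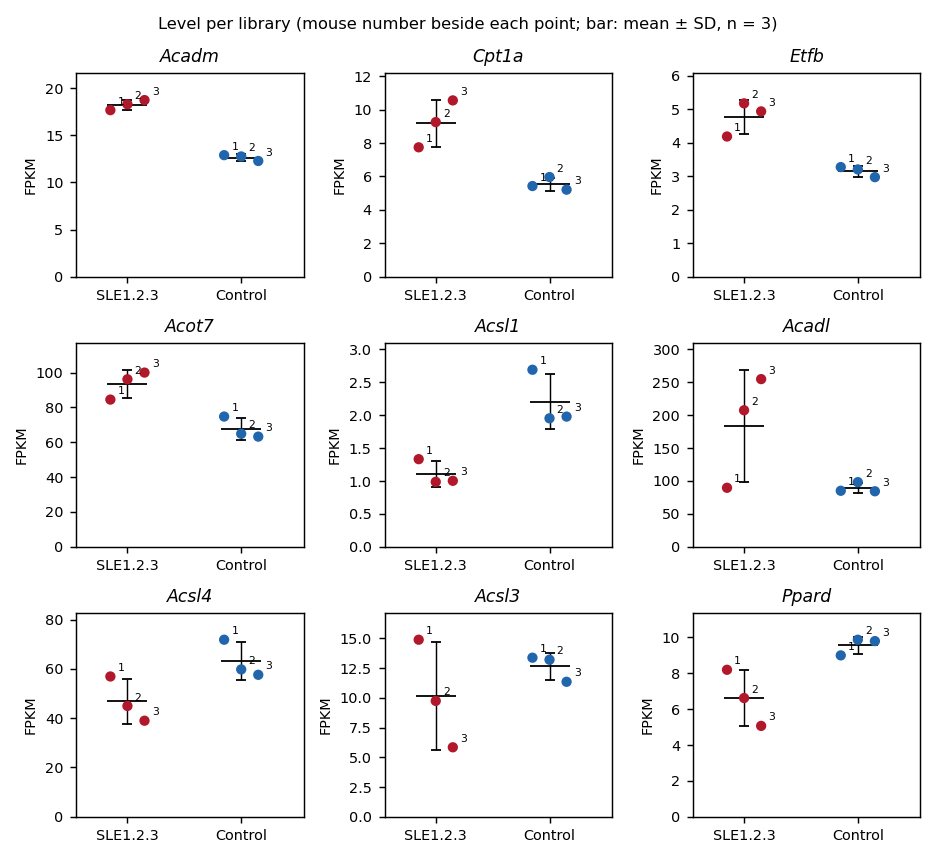
FPKM of 9 genes in each library, with the mouse number beside each point, SLE1.2.3 left of control, and bars giving mean ± SD (n = 3). Acadm, Cpt1a, Etfb and Acot7 have all SLE1.2.3 points above the controls and Acsl1 has them below, whereas Acadl of SLE1.2.3 mouse 1, at 89.7 FPKM, sits among the controls.

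The acyl-CoA dehydrogenases take the first step of each turn and differ in the chain length they prefer. Of these 4 genes 1 was called, higher, beside 9.65% of all tested genes called higher. Acadm, the medium-chain enzyme, stood at 17.7, 18.3 and 18.7 FPKM in SLE1.2.3 mice 1, 2 and 3, against 12.9, 12.8 and 12.3 FPKM in control mice 1, 2 and 3. The SLE1.2.3 libraries lay close together and above every control (ratio of means 1.44; log2 change 0.49, SE 0.06, adjusted p = 0.0074). Acadm passed in each of the 16 alternative fits, among them that of SLE1.2.3 mouse 1 alone against the controls (log2 change 0.45, adjusted p = 0.0497). Acadl, the long-chain enzyme, was the most abundant member by FPKM in both groups. It stood at 89.7, 207 and 255 FPKM in SLE1.2.3 mice 1, 2 and 3, against 85.1, 98.2 and 84.4 FPKM in control mice 1, 2 and 3. SLE1.2.3 mouse 1 lay inside the control range, while mice 2 and 3 were far above it, and the gene did not pass (log2 change 0.91, SE 0.37, adjusted p = 0.14). Without SLE1.2.3 mouse 1 it passed, with a log2 change of 1.36 (adjusted p = 6.3e-04). Acadvl, the very-long-chain enzyme of the inner membrane, was at 24.7, 21.98 and 19.3 FPKM in cells of SLE1.2.3 mice and 26.4, 27.2 and 24.9 FPKM in control cells; the groups did not overlap and the gene did not pass (adjusted p = 0.13). Acads, the short-chain enzyme, was at 28.2, 22.7 and 20.9 FPKM in cells of SLE1.2.3 mice and 24.4, 22.9 and 20.5 FPKM in control cells (adjusted p = 0.71).

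Acadl weighed most in the total over all members. Its share of the summed FPKM of the Acadl, Acadvl, Acadm and Acads genes was 56.0%, 76.7% and 81.2% in SLE1.2.3 mice 1, 2 and 3, and 57.2%, 61.0% and 59.4% in control mice 1, 2 and 3. All 31 members summed to 603, 716 and 753 FPKM in cells of SLE1.2.3 mice and 580, 587 and 538 FPKM in control cells. Without Acadl the sums were 513, 508 and 498 FPKM in cells of SLE1.2.3 mice and 495, 488 and 454 FPKM in control cells, and the SD over the SLE1.2.3 libraries was 78.1 FPKM with Acadl and 7.82 FPKM without it.

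**Figure D3:**
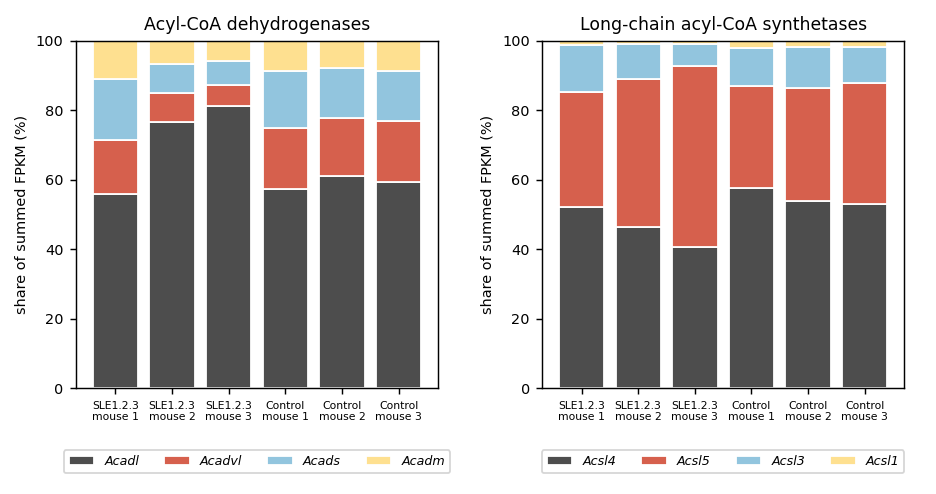
Share of each gene in the summed FPKM of the acyl-CoA dehydrogenases (left panel) and of the long-chain acyl-CoA synthetases (right panel), with a stacked bar per library. Acadl reaches 76.7% and 81.2% in SLE1.2.3 mice 2 and 3 against 56.0% in SLE1.2.3 mouse 1, and Acsl5 reaches 52.2% in SLE1.2.3 mouse 3.

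The promoters of Acadm and Cpt1a are shown because both genes rose and both hold the half-site AGGTCA that nuclear receptors such as the PPARs recognise. The sequences are from RefSeq (GRCm38.p6), run from 250 bases before to 50 bases after the annotated start, and 26 of the 31 members had an entry. Capitals mark AGGTCA on either strand. Acadm lies at chr3:153944594-153944893 on the minus strand and Cpt1a at chr19:3323051-3323350 on the plus strand.
Acadm: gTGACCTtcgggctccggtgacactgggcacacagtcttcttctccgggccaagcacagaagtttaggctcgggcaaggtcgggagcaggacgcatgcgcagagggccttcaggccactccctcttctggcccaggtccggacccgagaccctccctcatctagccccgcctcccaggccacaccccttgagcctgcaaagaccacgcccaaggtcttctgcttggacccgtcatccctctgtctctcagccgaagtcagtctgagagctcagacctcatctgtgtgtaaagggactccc
Cpt1a: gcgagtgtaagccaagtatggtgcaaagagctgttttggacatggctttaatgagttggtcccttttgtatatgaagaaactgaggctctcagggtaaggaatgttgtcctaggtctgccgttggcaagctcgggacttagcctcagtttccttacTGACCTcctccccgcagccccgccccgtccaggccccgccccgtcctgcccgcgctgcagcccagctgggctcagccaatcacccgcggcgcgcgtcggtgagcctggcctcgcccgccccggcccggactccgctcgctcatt
Each window held the half-site once. It was found in 5 of the 26 members, namely Acadm, Acadvl, Cd36, Cpt1a and Echs1, and in 16.3% of all 32851 promoter windows. A direct repeat of AGGTCA with 1 base between the copies, the usual PPAR response element, was in 0 of the 26 and in 0.0396% of all windows, and the estrogen-related receptor motif TCAAGGTCA, which contains the half-site, was in 0 and 0.423%. Only exact matches within these windows were sought. With so few windows holding the repeat or the longer motif, 0 of the 26 cannot show that the members lack such elements. Acadvl, Cd36 and Echs1 did not pass or were not tested, so members with the half-site did not share a call.

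Of the 5 genes that complete each turn, 0 passed with limma and 0 with voom, while 3 had an unadjusted p under 0.05. Among all 11378 tested genes 35% had such an unadjusted p, so a count of this kind does not set these genes apart. Hadha and Hadhb encode the subunits of the mitochondrial trifunctional protein, which handles long chains. Hadha was at 19.6, 20.3 and 20.1 FPKM in cells of SLE1.2.3 mice and 18.3, 18.1 and 17.3 FPKM in control cells. Hadhb was at 11.9, 13.0 and 13.0 FPKM in cells of SLE1.2.3 mice and 10.7, 11.4 and 10.4 FPKM in control cells. In both genes every SLE1.2.3 library was above every control, but neither passed (log2 changes 0.15 and 0.20, adjusted p = 0.11 and 0.084). The ratio of Hadhb to Hadha FPKM was 0.608, 0.642 and 0.646 in SLE1.2.3 cells and 0.586, 0.630 and 0.601 in control cells, and these ranges overlapped. Both genes lie head to head on chromosome 5 with 85 bases between their features, and the RefSeq window of Hadhb (chr5:30155003-30155302, plus strand, GRCm38.p6) spans this gap, which is in capitals.
Hadhb: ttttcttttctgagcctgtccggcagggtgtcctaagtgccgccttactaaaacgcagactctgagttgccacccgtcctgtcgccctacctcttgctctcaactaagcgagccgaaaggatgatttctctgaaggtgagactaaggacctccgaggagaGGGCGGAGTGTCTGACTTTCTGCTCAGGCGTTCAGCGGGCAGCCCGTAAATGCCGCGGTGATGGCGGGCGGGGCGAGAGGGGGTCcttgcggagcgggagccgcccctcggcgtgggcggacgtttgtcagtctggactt
Neither the AGGTCA half-site nor the direct repeat is in this window. Echs1, the short-chain hydratase, was at 5.31 ± 0.191 FPKM in cells of SLE1.2.3 mice and 4.53 ± 0.273 FPKM in control cells (SD, n = 3 each; adjusted p = 0.10), again without overlap. Hadh, the hydroxyacyl-CoA dehydrogenase of shorter chains, was at 9.41 ± 1.01 FPKM and Acaa2, the thiolase, at 33.9 ± 3.72 FPKM in cells of SLE1.2.3 mice, against 10.7 ± 1.44 FPKM and 31.3 ± 2.99 FPKM in control cells, and neither passed (adjusted p = 0.37 and 0.48).

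Of the 3 enzymes that prepare unsaturated fatty acids for oxidation, 0 passed with limma, 0 had an unadjusted p under 0.05 and 0 passed with voom. Eci1, a mitochondrial enoyl-CoA isomerase, was at 6.88, 6.93 and 6.32 FPKM in cells of SLE1.2.3 mice and 5.94, 6.01 and 5.91 FPKM in control cells, without overlap (log2 change 0.15, adjusted p = 0.15). Eci2, the isomerase found in mitochondria and peroxisomes, was at 10.6 ± 1.19 FPKM in cells of SLE1.2.3 mice and 11.1 ± 1.41 FPKM in control cells (SD, n = 3 each; adjusted p = 0.71). Decr1, the dienoyl-CoA reductase, was at 3.08 ± 0.248 FPKM in cells of SLE1.2.3 mice and 2.58 ± 0.407 FPKM in control cells (adjusted p = 0.24).

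Of the 3 electron transfer genes 1 rose, that of the β subunit of ETF. Etfb was at 4.19, 5.18 and 4.94 FPKM in cells of SLE1.2.3 mice, against 3.28, 3.21 and 2.98 FPKM in control cells, and every SLE1.2.3 library was above the controls (ratio of means 1.51; log2 change 0.47, SE 0.09, adjusted p = 0.023). Etfa, its partner in the dimer, was at 39.1, 40.5 and 41.7 FPKM in cells of SLE1.2.3 mice and 40.6, 44.5 and 40.5 FPKM in control cells (log2 change -0.05, adjusted p = 0.62). Etfdh, which passes the electrons on to ubiquinone, was at 7.53 ± 0.659 FPKM in cells of SLE1.2.3 mice and 7.80 ± 0.841 FPKM in control cells (adjusted p = 0.78). The Etfb reads numbered 407, 372 and 432 in SLE1.2.3 cells and 192, 212 and 103 in control cells. In GENCODE M21 the gene Gm45233 shares 617 exonic bases with Etfb on the same strand, and how reads common to both were counted is not given in the sources used here, so the level of Etfb is uncertain. Etfb lies on chromosome 7 (43444083 to 43457800, mm10), where 11 of 53 other tested genes starting within 2 Mb were called higher and 7 lower. Over all tested genes the shares were 9.65% higher and 5.58% lower. Cpt1c, described below, starts at 44959372 on the same chromosome and was among the 11. The labels give no bounds of the Sle intervals.

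Of the 2 peroxisomal members 0 passed with limma and 0 with voom, while 1 had an unadjusted p under 0.05, as did 35% of all tested genes. Acaa1a, the peroxisomal thiolase, was at 15.1, 14.4 and 13.98 FPKM in cells of SLE1.2.3 mice and 11.9, 13.3 and 11.3 FPKM in control cells, without overlap (log2 change 0.24, adjusted p = 0.080). It shares 290 exonic bases with Myd88 on the opposite strand, which was at 26.3, 33.3 and 36.9 FPKM in cells of SLE1.2.3 mice and 21.2, 20.4 and 20.3 FPKM in control cells; the part of such reads was not tested, and the strand setting of the counting is not given in the sources used here. Hsd17b4, the multifunctional enzyme of peroxisomes, was at 17.9 ± 1.01 FPKM in cells of SLE1.2.3 mice and 17.5 ± 0.637 FPKM in control cells (SD, n = 3 each; adjusted p = 0.74).

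Of the receptors that sense fatty acids, Ppard was expressed and Ppara was close to absent. Ppard stood at 8.20, 6.62 and 5.07 FPKM in SLE1.2.3 mice 1, 2 and 3, against 9.002, 9.88 and 9.80 FPKM in control mice 1, 2 and 3. The groups did not overlap, mouse 1 being nearest to the controls, and the gene did not pass (log2 change -0.49, SE 0.15, adjusted p = 0.074). Ppara, the main oxidation receptor of liver, had 7, 0 and 0 reads in SLE1.2.3 cells and 1, 1 and 0 reads in control cells, too few for a comparison.

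Several members differed more between SLE1.2.3 mouse 1 and SLE1.2.3 mice 2 and 3 than among the controls. Without SLE1.2.3 mouse 1, 7 members were called higher, namely Acadl, Acadm, Acot7, Acsl5, Cpt1a, Etfb and Hadhb, and 5 lower, namely Acadvl, Acsl1, Acsl3, Acsl4 and Ppard, where 18.7% and 13.8% of all genes were called. From SLE1.2.3 mouse 1 alone, with the spread taken from the control mice and the remaining library assumed to vary as they do, Acadm was the single member called (4.2% of all genes higher and 1.64% lower). In the same mice 1, 2 and 3 the δ chain gene Trdc stood at 4.96, 18.9 and 45.2 FPKM, against at most 0.661 FPKM in control cells, and Cd8a was at 1.34, 21.4 and 56.4 FPKM, against at most 0.508 FPKM in control cells. Cd4 was at 257, 144 and 71.6 FPKM, against 246, 264 and 253 FPKM in control cells. The part of γδ, CD8 or other cells in the values of any member, called or not, was not tested. In SLE1.2.3 mouse 1, whose γδ and innate-like markers summed to 59.0 FPKM, against at most 3.87 FPKM in control cells, Cpt1a was 1.40 times, Acadm 1.40 times and Acadl 1.00 times the control mean.

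**Figure D4:**
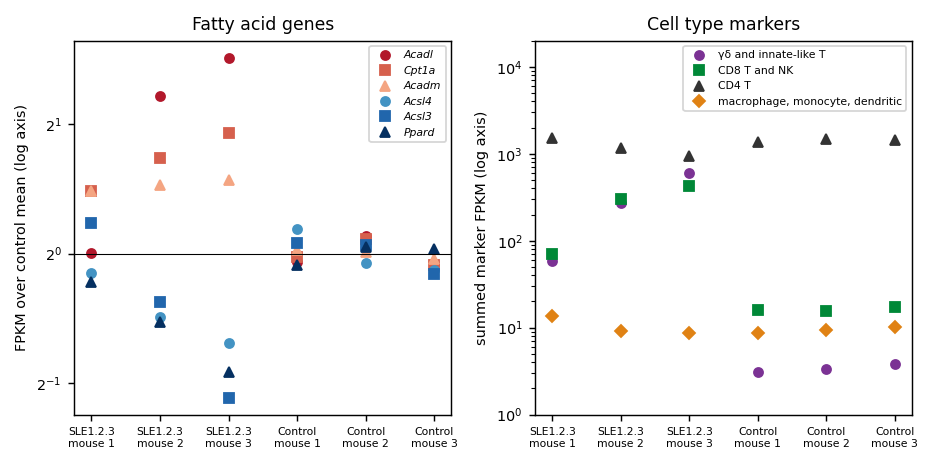
Left panel, FPKM of 6 genes over the control mean in each library on a log axis; right panel, summed FPKM of marker lists on a log axis. In SLE1.2.3 mice 2 and 3 Acadl and Cpt1a lie further above the control mean than in mouse 1, and Acsl3, Acsl4 and Ppard lie lower than in mouse 1, while Acadm is level across the 3 mice and the γδ and innate-like markers sum to 59.0, 271 and 601 FPKM.

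Other genes of fatty acid handling were read from 8 lists of 134 symbols, of which 89 were tested; 12 were called higher and 3 lower, or 13.5% and 3.37%, again near the 9.65% and 5.58% of all genes. Carnitine genes had 2 of 4 tested called, both higher. Cpt1c, a CPT1 isoform best known from neurons, was at 7.06, 5.49 and 4.32 FPKM in cells of SLE1.2.3 mice and 1.51, 1.49 and 1.13 FPKM in control cells (log2 change 1.46, SE 0.16, adjusted p = 0.0071), and it was highest in SLE1.2.3 mouse 1. Its share of the Cpt1a, Cpt1b and Cpt1c sum was 47.3%, 37.0% and 28.8% in SLE1.2.3 cells and 21.6%, 19.7% and 17.5% in control cells. Crot, the peroxisomal carnitine octanoyltransferase, rose by a log2 change of 0.40 (adjusted p = 0.038).

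Lipid droplet and lipolysis genes had 4 of 11 tested called, all higher, beside 9.65% of all tested genes called higher and 5.58% lower. Dgat1, which makes triglyceride from diglyceride and acyl-CoA, was at 234, 318 and 314 FPKM in cells of SLE1.2.3 mice, against 92.1, 114 and 88.2 FPKM in control cells (log2 change 1.54, SE 0.16, adjusted p = 0.0058). Plin2, a coat protein of lipid droplets, was at 55.3, 67.0 and 58.0 FPKM in cells of SLE1.2.3 mice, against 24.6, 26.2 and 21.5 FPKM in control cells (log2 change 1.28, SE 0.11, adjusted p = 0.0028). In both genes SLE1.2.3 mouse 1 was well above the controls. Plin3, another droplet coat protein, rose by a log2 change of 0.74 (adjusted p = 0.019), and Pnpla2, the triglyceride lipase ATGL, named here because it was the remaining call of the list, by 0.37 (adjusted p = 0.023). Of the 11 tested genes 6 had all SLE1.2.3 values above all control values and 2 had all below, beside 23.9% and 17.7% of all tested genes. Abhd5 and Abhd12, named after their values were seen, were above in this way without passing (adjusted p = 0.07 and 0.06). The 2 genes below, also named after their values were seen, did not pass either. Hilpda, a droplet protein that inhibits ATGL, was at 28.3, 22.3 and 13.7 FPKM in cells of SLE1.2.3 mice and 33.3, 51.2 and 44.0 FPKM in control cells (adjusted p = 0.058), and Lipe, the hormone-sensitive lipase, was at 4.43, 2.87 and 2.59 FPKM in cells of SLE1.2.3 mice and 6.24, 5.57 and 4.99 FPKM in control cells (adjusted p = 0.052).

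Among other uptake and activation genes 2 of 9 tested rose and 0 fell. This 0 covers tested genes only, since the filter on the mean left out Vldlr, Acsl6 and Lpl. These genes, picked after their values were seen, lay lower in every SLE1.2.3 library than in any control. Their ratios of means were 0.0793, 0.140 and 0.224. Fabp7, also left out, went the other way, with at most 4 reads in any library. Acsbg1, an acyl-CoA synthetase of the bubblegum family, was at 17.8, 27.1 and 32.7 FPKM in cells of SLE1.2.3 mice and 9.73, 10.3 and 9.95 FPKM in control cells (adjusted p = 0.017). Slc27a6, a FATP family transporter, was at 1.03, 3.29 and 5.61 FPKM in cells of SLE1.2.3 mice and at most 0.227 FPKM in control cells (adjusted p = 0.041); only its SLE1.2.3 values brought it past the filter on the mean, which fixed its direction. Other mitochondrial acyl-CoA enzymes had 2 of 19 higher and 1 lower. Hsd17b10, a short-chain hydroxyacyl-CoA dehydrogenase that is also part of mitochondrial RNase P, was at 66.4, 140 and 154 FPKM in cells of SLE1.2.3 mice and 38.8, 42.0 and 34.4 FPKM in control cells (adjusted p = 0.027). Acsbg1, Slc27a6 and Hsd17b10 each increased over SLE1.2.3 mice 1, 2 and 3, in the order of the γδ and innate-like marker sum. The part of γδ, CD8 or other cells in the values of any gene of these lists was not tested. Mcee, the methylmalonyl-CoA epimerase, fell by 0.92 on the log2 scale (adjusted p = 0.043), and Flad1, which makes the FAD that the dehydrogenases use, rose by 0.24 (adjusted p = 0.046).

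**Figure D5:**
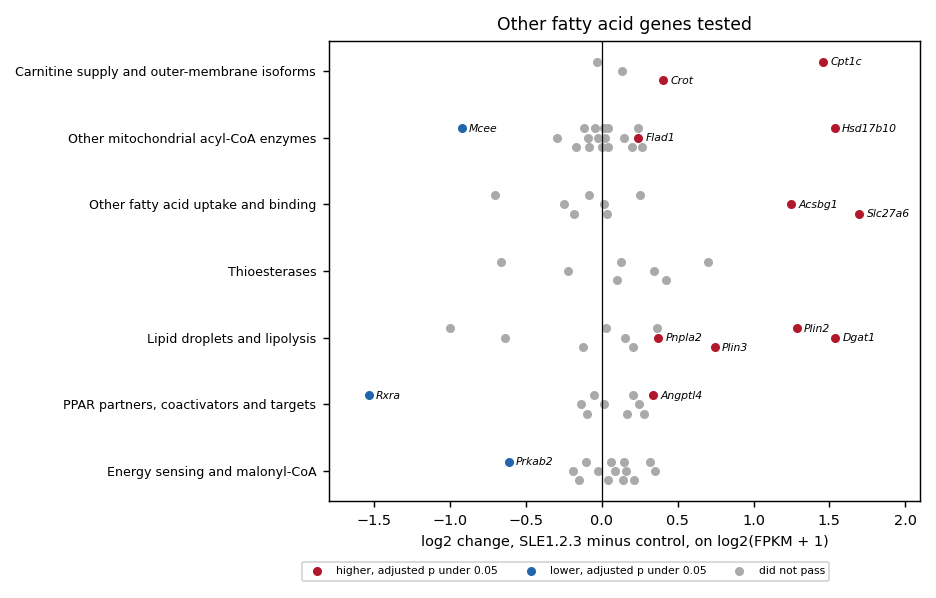
Log2 change of SLE1.2.3 over control cells, on log2(FPKM + 1), for the tested genes of 7 of the 8 further fatty acid lists, with a row per list, with called genes coloured and named. Cpt1c, Hsd17b10, Slc27a6, Acsbg1, Plin2 and Dgat1 lie above 1 and Rxra, at -1.54, lies furthest below 0.

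Partners of the PPARs had 1 of 10 tested higher and 1 lower, beside 9.65% and 5.58% of all tested genes. Rxra, which encodes a dimer partner of the PPARs, was at 1.34, 0.746 and 0.420 FPKM in cells of SLE1.2.3 mice, against 4.01, 3.87 and 4.81 FPKM in control cells (log2 change -1.54, SE 0.19, adjusted p = 0.0086); its mean in SLE1.2.3 cells, 0.835 FPKM, was below 1 FPKM, so that it passed the filter through the control values, which helped to fix its direction. Angptl4, a PPAR target in several tissues, rose by 0.34 (adjusted p = 0.027). In the list of energy sensors 1 of 14 fell, Prkab2, a regulatory subunit of AMP-activated kinase (log2 change -0.61, adjusted p = 0.048), and 0 rose. Of 7 tested thioesterases 0 passed with limma and 0 with voom, while 4 had an unadjusted p under 0.05, beside 35% of all tested genes. Them6 was at 14.5 ± 0.683 FPKM in cells of SLE1.2.3 mice and 11.2 ± 1.32 FPKM in control cells (SD, n = 3 each, adjusted p = 0.056). Acot11 was at 4.83 ± 1.60 FPKM in cells of SLE1.2.3 mice and 2.49 ± 0.174 FPKM in control cells (adjusted p = 0.064). Under a common FPKM sum Acot11 was called higher (log2 change 0.79, adjusted p = 0.0281), and it passed in 1 of the 6 fits that leave out 1 library. Cpt1c, Plin2, Dgat1 and Rxra passed in all 6 fits that leave out 1 library, and the other named genes of these lists that passed here did so in 1 or 2 of the 6. With voom Flad1, Slc27a6 and Prkab2 lost their calls (adjusted p = 0.0553, 0.0782 and 0.0521), and Prkab2 also with a pseudocount of 0.1 (adjusted p = 0.0508). A common FPKM sum ended the calls of Crot, Flad1, Pnpla2, Angptl4 and Prkab2 (adjusted p = 0.0704, 0.179, 0.0981, 0.0799 and 0.0669), and quantile normalization those of Slc27a6 and Flad1 (adjusted p = 0.0658 and 0.0609). With no filter on low values Crot, Hsd17b10, Mcee, Flad1, Acsbg1, Slc27a6, Plin3, Angptl4 and Prkab2 did not pass (adjusted p from 0.0517 to 0.118). Flad1 also lost its call with median-ratio scaling, with no mean-variance trend and with a mean of at least 5 FPKM (adjusted p = 0.053, 0.0515 and 0.0576).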

How the data were processed

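Messenger RNA of 3 SLE1.2.3 and 3 control mice was sequenced from SMARTER libraries, per the labels' protocols. The authors deposited FPKM values, 1 column per mouse. Build mm10, featureCounts 2.0.0, STAR 2.7.3a, DESeq2 1.24.0, cutadapt 2.10 and FastQC 0.11.9 appear, without roles, in the submitters' processing notes. The annotation release and strand setting were not given in the sources used here, and the members' IDs and coordinates match GENCODE M21.

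Values were transformed to log2(FPKM + 1), which makes changes of low genes look smaller. For the genes that average 1 FPKM or more, limma 3.58.1 in R 4.3.3 fitted genotype alone, with a mean-variance trend; p-values were adjusted by Benjamini-Hochberg over all genes tested (threshold 0.05). Reads per library were recovered from the FPKM steps: 100% of values under 30 reads were whole within 0.15 read. A gene at 0 could hold up to 3 reads, which covers counting error only, and control mouse 3 is the shallowest. The spread behind each p-value is that between mice of a group. The fit was checked on simulated counts. All members are named, and of each further list up to 3 called genes with the smallest adjusted p, or 2 where none passed; the list of peroxisomal genes is not reported here. The members and lists were chosen with earlier results of these data known. Copies of at least 90% identity over 300 bases were sought with blastn 2.17.0.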

Additional observations from a re-analysis of the deposited data

How the results depend on the processing

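Against 1733 genes called, with 4 members higher and 1 lower, the fit with no filter on low values called 798 genes and 1 and 0 members. A mean of at least 5 FPKM, which drops Acsl1 and Etfb, gave 1129 genes and 0 members lower, and a common FPKM sum gave 0 lower. Leaving out 1 library gave 240 to 3701 genes, 1 to 7 members higher and 0 to 5 lower. The 240 genes were without SLE1.2.3 mouse 2 and the 3701 without SLE1.2.3 mouse 1; without control mouse 1, 2 or 3 the counts were 327, 261 and 288, each with 1 member higher and 0 lower. From SLE1.2.3 mouse 1 alone, without mice 2 and 3, 665 genes, 1 member higher and 0 lower were called. Acadm passed in every one of these fits, with an adjusted p of at most 0.0497. Cpt1a lost its call without any single control, without SLE1.2.3 mouse 2, without mice 2 and 3 (adjusted p = 0.10) and with no filter (adjusted p = 0.0559). Its log2 change stayed between 0.42 and 0.74. The cause of these losses was not tested.

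Sample numbers are shared between groups, and the labels do not say whether they pair the mice. Deviations of same-numbered libraries had correlations of -0.0040, 0.10 and 0.091. Those of differently numbered libraries ran from -0.19 to 0.125. With 3 libraries per group these values cannot decide whether the numbers pair the mice. With the mouse number as a replicate block 940 genes, 2 members higher (Acadm and Cpt1a) and 1 lower (Acsl1) were called.

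The sign of some uncalled members turned. Under a common FPKM sum, which moved the median of all genes to 0.11 and that of the members to 0.25, Fabp5, Cpt2, Eci2, Etfa and Etfdh had log2 changes of 0.079, 0.059, 0.040, 0.065 and 0.059. Under quantile normalization Hsd17b4 had -0.0080. In SLE1.2.3 mouse 1 alone Acsl3, Acsl5, Eci2, Etfdh and Hsd17b4 had 0.22, -0.032, 0.035, 0.081 and -0.051. Without 1 library each, Fabp5 ranged over -0.13 to 0.088, Acads over -0.048 to 0.16, Eci2 over -0.12 to 0.027 and Etfdh over -0.11 to 0.026. The voom fit on recovered reads, added after the data were seen, called the same 5 members. The edgeR and DESeq2 tests foreseen for recovered reads were not run.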

Other observations

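The order of the members by level depends on the length used, since the deposited feature length takes in all annotated exons. Measured over the longest protein-coding transcript of the GENCODE M21 basic set, a choice made after the data were seen, Fabp5 was at 67.8 FPKM of transcript length in SLE1.2.3 cells and 69.1 in control cells, where the deposited length gives 18.8 and 19.1 FPKM, and its rank among the 31 members in control cells was 3 in place of 9. Echs1, whose deposited length is 5.32 times that of its transcript, had rank 17 in place of 25. Acot7 and Acadl had ranks 1 and 2 in control cells by transcript length, and ranks 2 and 1 by deposited length. Ratios between genotypes of the same gene do not change with this choice.

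Near-identical copies of members were low where they had a value. Gm45233, which overlaps Etfb on the same strand, has no value here. Acaa1b, which is 96.6% identical to Acaa1a over 1428 bases, had 0.055, 0.058 and 0.136 FPKM in cells of SLE1.2.3 mice and at most 0.030 FPKM in control cells. The processed pseudogene Gm13910, 99.8% identical to Hadhb, had values of 0.503, 0.738 and 0.699 FPKM in cells of SLE1.2.3 mice and 0.570, 0.555 and 0.518 FPKM in control cells. Of 5 processed copies of Fabp5, Gm6166 was the most abundant, at 0.498, 1.07 and 0.456 FPKM in cells of SLE1.2.3 mice and 0.486, 0.258 and 0.987 FPKM in control cells. Reads may be split between such genes and their copies. Exons are also shared on the opposite strand by Acsl1 and Gm45244 (1039 bases), Acadvl and Dvl2 (1151 bases), Acsl5 and Zdhhc6 (404 bases) and Cpt1c and 6530437J22Rik (366 bases), and on the same strand by Flad1 and Lenep (1790 bases) and Acsl3 and Utp14b (244 bases), so the levels of these genes are uncertain to the extent that such reads were shared.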
